A study of Mus musculus with 14 samples.

Results

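The potassium channel genes of the mouse were followed through 2 stem cell populations of back skin at 2 ages. Members were the genes whose symbol starts with Kcn, one or more lower-case letters and a number, leaving out antisense and imprinting-control transcripts such as Kcnq1ot1. The rule took 93 of the 47729 listed genes, and no measured value entered it. Of these, 74 passed the filter on low counts, among 21464 genes that passed it in all. Pore-forming subunits made up most of the set: 40 voltage-gated genes (33 passed the filter), 15 inward rectifiers (11) and 14 tandem-pore leak channels (11). A further 8 pore genes (8) were of the Kcnma, Kcnn, Kcnt and Kcnu families, which include the channels gated by calcium or sodium. The other 16 (11 passed) encode auxiliary subunits that bind to pores and set their gating or trafficking.

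Back skin of female mice aged 2 months (young) or 24 months (aged) was digested with trypsin, and cells were purified by flow cytometry. The labels give the strain as C57B6 in one field and C57B8 in another. Both populations were sorted as lineage-negative cells with high integrin alpha6. Those of the follicle (HFSC, hair follicle stem cells) carried CD34 and lacked Sca1, and those of the epidermis (EpdSC, epidermal stem cells) carried Sca1 and lacked CD34. Each population and age had 2 RNA-seq libraries and 1 ATAC-seq library, and each age had 1 10x single-cell library of lineage-negative, integrin alpha6-positive cells. Nothing in the labels says that the 2 RNA libraries of a group are from different animals. A p-value here therefore reflects the spread between these samples alone, and that spread may be technical. RNA libraries held 25126808 to 35905505 counts. Levels are given as CPM, a gene's count for every 1000000 counts of the library after scaling. Cd34 was at 1088 to 1807 CPM in HFSC and at 0.340 to 1.81 in EpdSC, and Ly6a, which encodes Sca1, at 0.399 to 1.98 in HFSC and 133 to 218 in EpdSC, so both populations carried the markers of their sort.

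Potassium channels let potassium leave or enter a cell down its electrochemical gradient and so set the resting membrane potential. Inward rectifiers and tandem-pore channels conduct near rest, voltage-gated channels open on depolarisation, and calcium-activated channels couple the potential to calcium signals. Keratinocytes are not electrically excitable, yet their membrane potential influences calcium entry, volume and proliferation, and several channel genes of the skin are known from work on epidermal differentiation and hair growth.

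The 4 promoters printed here belong to genes that the results turn on: Kcnj2, a gene higher in EpdSC, and Kcnk10, Kcnk2 and Kcnma1, genes lower in EpdSC. Each is the RefSeq sequence of GRCm38.p6 from 250 bases before to 50 bases after a start site, 5′ to 3′ on the strand of the gene, with the start that had the most young HFSC ATAC counts where a gene has several. Capitals mark matches on either strand to the GC box GGGCGG, the AP-1 motif TGANTCA, the TATA box TATAAA or the CCAAT box. The Kcnj2 sequence lies at chr11:111065914-111066213 on the plus strand, that of Kcnk10 at chr12:98575078-98575377, that of Kcnk2 at chr1:189343304-189343603 and that of Kcnma1 at chr14:24004156-24004455, the last 3 on the minus strand.
Kcnj2: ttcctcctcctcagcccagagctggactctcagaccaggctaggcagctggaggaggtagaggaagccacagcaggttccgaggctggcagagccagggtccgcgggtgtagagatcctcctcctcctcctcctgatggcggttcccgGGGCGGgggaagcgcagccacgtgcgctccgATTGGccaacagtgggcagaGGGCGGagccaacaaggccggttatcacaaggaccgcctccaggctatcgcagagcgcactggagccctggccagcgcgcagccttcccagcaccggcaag
Kcnk10: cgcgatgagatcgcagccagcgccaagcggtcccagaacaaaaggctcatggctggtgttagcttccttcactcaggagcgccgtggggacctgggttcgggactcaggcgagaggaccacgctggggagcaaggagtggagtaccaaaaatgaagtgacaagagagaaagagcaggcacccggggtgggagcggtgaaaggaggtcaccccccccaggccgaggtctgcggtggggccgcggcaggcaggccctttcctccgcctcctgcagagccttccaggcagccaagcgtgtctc
Kcnk2: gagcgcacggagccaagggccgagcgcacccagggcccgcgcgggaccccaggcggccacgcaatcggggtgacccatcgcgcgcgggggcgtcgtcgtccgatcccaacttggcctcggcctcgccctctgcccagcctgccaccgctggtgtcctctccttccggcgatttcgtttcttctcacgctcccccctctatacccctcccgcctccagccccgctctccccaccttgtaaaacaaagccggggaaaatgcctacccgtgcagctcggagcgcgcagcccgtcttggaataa
Kcnma1: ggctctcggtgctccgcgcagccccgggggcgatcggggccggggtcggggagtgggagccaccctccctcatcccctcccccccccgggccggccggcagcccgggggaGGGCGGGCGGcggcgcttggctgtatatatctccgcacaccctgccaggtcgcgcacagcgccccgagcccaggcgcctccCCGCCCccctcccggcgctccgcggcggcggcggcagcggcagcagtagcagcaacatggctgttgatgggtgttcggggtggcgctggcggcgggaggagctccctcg
The Kcnj2 window held 2 matches to GGGCGG and 1 to CCAAT, with 18 CpG dinucleotides and 66.7% GC. The Kcnma1 window held 3 matches to GGGCGG, of which 2 overlap, with 36 CpG and 78.0% GC. The Kcnk10 window (18 CpG) and the Kcnk2 window (33 CpG) held none of the 4 motifs. Another Kcnk2 promoter, at chr1:189343658-189343957, tied with the printed one at 215 counts, and the first listed was printed. The tied promoter held 1 match to GGGCGG and 1 to CCAAT. The other Kcnk10 promoter, at chr12:98578164-98578463 with 66 counts, held 1 match to GGGCGG and 2 to CCAAT. Over all 32851 promoters in the table, 35.7% held GGGCGG, 7.81% TGANTCA, 13.6% TATAAA and 37.4% CCAAT. Of the 93 promoters listed for 68 members, 48.4%, 4.30%, 5.38% and 30.1% did, in that order. The median GC content was 58.0% in the members' promoters and 52.7% in all. These matches are letters in a window and were not tested as binding sites.

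Reads of the members came mostly from a few genes. A mean of at least 10 CPM in some group was reached by 11 members, at least 5 CPM by 16 and at least 1 CPM by 42, while 46 members were under 1 CPM in every library and 27 had no count in at least 1 library. The summed level of all 93 was 388 to 505 CPM in HFSC and 300 to 367 CPM in EpdSC. In HFSC the 3 members with the most reads took 51.0% to 61.4% of those counts, and they came from Kcnj15, Kcnk2, Kcnma1, Kcnh1 and Kcnj2. In the 4 EpdSC libraries the 3 were Kcnj2, Kcnj15 and Kcnj16 each time, with 71.0% to 75.0%. Long transcripts give more reads, so these shares rank reads and not molecules.

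The comparison of EpdSC with HFSC separated the members into a smaller set higher in EpdSC, with the inward rectifiers Kcnj2 and Kcnj16 in it, and a larger set lower in EpdSC. In young mice the edgeR quasi-likelihood test called 20 of 74 members, at a p under 0.05 after Benjamini-Hochberg adjustment, or 27.0%, beside 26.1% of all genes tested. Of these, 6 were higher in EpdSC and 14 lower, where 13.0% of all genes were called higher and 13.1% lower. In aged mice 19 were called, 25.7% beside 24.1% of all genes, with 5 higher (12.2% of all genes) and 14 lower (11.9% of all genes). The share of members called was therefore close to that of all genes. The median log2 fold change of the members tested was -0.68 in young and -0.94 in aged mice, and that of all genes tested was -0.06 and -0.09. Fold changes are EpdSC over HFSC on the log2 scale with standard errors (SE) throughout this comparison. In bulk samples fewer cells of a type and less RNA per cell cannot be told apart. Called genes were picked by their p, so libraries that do not overlap between the populations are no added evidence for them.

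Of the 22 members called at either age, 17 were called at both, all 17 in the same direction, which is 85.0% of the young calls and 89.5% of the aged ones. For all genes the 4287 shared calls were 76.6% and 82.8%. Kcnj2, Kcnj16, Kcnk6, Kcnk7 and Kcnip3 were higher in EpdSC at both ages, and Kcnb2, Kcnc4, Kcnd3, Kcnh1, Kcnh3, Kcnj15, Kcnk2, Kcnk10, Kcnma1, Kcnn1, Kcnn3 and Kcnq3 were lower. Kcnab3, Kcnj9 and Kcnk4 were called in young mice only, Kcne4 and Kcnn4 in aged mice only. For none of these 5 genes did edgeR call the difference between the ages itself (adjusted p of at least 0.743).

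**Figure D1:**
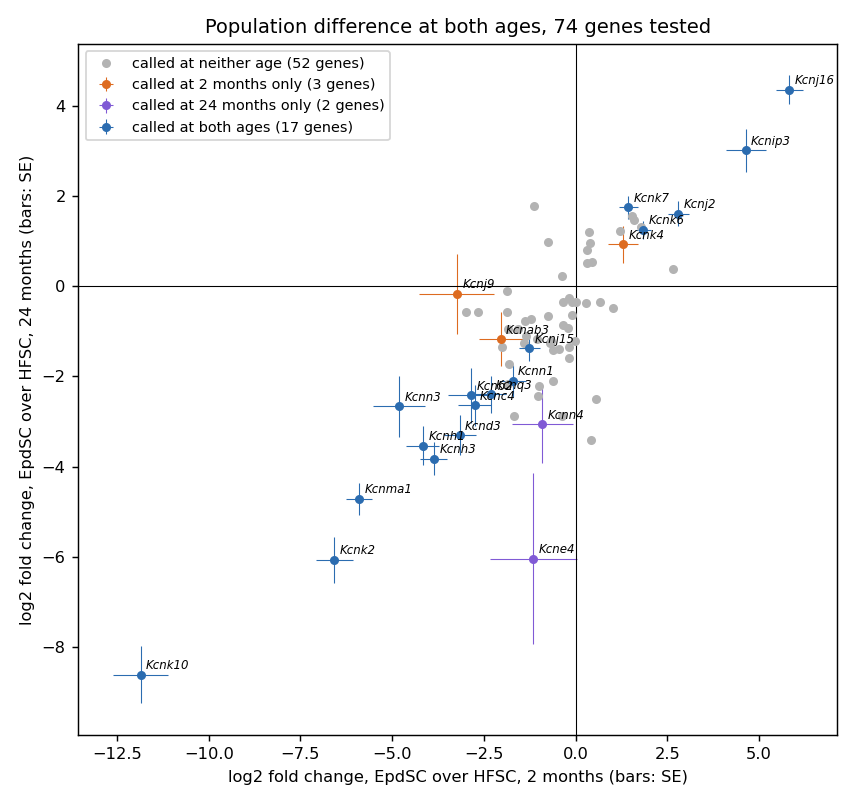
Log2 fold change of EpdSC over HFSC in young mice (horizontal axis) and in aged mice (vertical axis) for the 74 members tested, with SE bars on the 22 called ones. The 17 members called at both ages lie in the lower left and upper right fields, with Kcnk10 lowest and Kcnj16 highest. Kcnk10 has no counts in young EpdSC, so its position depends on the model's prior count.

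Among the inward rectifiers, Kcnj2 (chromosome 11, 111066164 to 111076825), whose channel holds the resting potential near the potassium equilibrium, had 141 and 158 CPM in young EpdSC and 139 and 169 at 24 months, where HFSC gave 17.7 and 25.1 (young) and 34.2 and 67.2 (aged). Every EpdSC library was above every HFSC library. The log2 fold change was 2.81 (SE 0.29, adjusted p = 2.03e-05 in edgeR) in young and 1.60 (SE 0.27, adjusted p = 0.00109 in edgeR) in aged mice. Its neighbour Kcnj16 (chromosome 11, 110968033 to 111027968), which forms pH-sensitive channels with other Kir subunits, had 32.1 and 40.0 CPM in young and 41.4 and 24.6 in aged EpdSC, against 0.666 and 0.590 in young and 1.98 and 1.25 in aged HFSC. The groups did not overlap, and the log2 fold change was 5.83 (SE 0.36, adjusted p = 3.33e-07 in edgeR) in young and 4.35 (SE 0.32, adjusted p = 1.57e-06 in edgeR) in aged mice. These genes lie 38196 bases apart with no coding gene of the RefSeq table between them.

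Another inward rectifier ran the other way. Kcnj15 (chromosome 16, 95257558 to 95300260), which encodes a Kir subunit of epithelia, had 104 and 185 CPM in young HFSC and 109 and 114 at 24 months, where EpdSC gave 43.9 and 76.9 (young) and 41.1 and 45.0 (aged). HFSC libraries were higher without overlap at both ages, by a log2 fold change of -1.26 (SE 0.28, adjusted p = 0.00549 in edgeR) in young and -1.37 (SE 0.28, adjusted p = 0.00358 in edgeR) in aged mice. Without young HFSC replicate 2, the library with 185 CPM, the young difference was -0.79 and was not called (adjusted p = 0.0521 in edgeR). Kcnj9, a subunit of G-protein-gated channels, was called lower in young EpdSC at under 1 CPM in every library, and lost that call in 8 alternative fits, among them those without any 1 of the 4 young libraries, without aged HFSC replicate 2 or without aged EpdSC replicate 1 (adjusted p from 0.0509 to 0.166 in edgeR).

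Tandem-pore channels also split by population. Kcnk2 (chromosome 1, 189207930 to 189402782), a leak channel of the TREK group that opens on membrane stretch, had 65.4 and 61.0 CPM in young HFSC and 51.5 and 36.7 in aged HFSC. In EpdSC it had 0.50 and 0.822 in young and 0.155 and 1.17 in aged libraries, far below every HFSC library. The log2 fold change was -6.58 (SE 0.51, adjusted p = 2.07e-06 in edgeR) in young and -6.07 (SE 0.50, adjusted p = 4.02e-06 in edgeR) in aged mice.

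Kcnk10 (chromosome 12, 98429432 to 98578213), of the same TREK group, had 18.9 and 11.6 CPM in young and 8.02 and 7.57 in aged HFSC. EpdSC libraries gave 0 counts in young mice and 1 count in all in aged mice. Young HFSC held 863 counts, so Kcnk10 was at least 334-fold higher there, against a floor of 3 counts over the group. In aged mice the ratio of 469 to 1 counts was 491, with an exact binomial 95% interval of 87.7 to 19400 that covers counting error only.

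The remaining called tandem-pore genes were higher in EpdSC. Kcnk6 (chromosome 7, 29221928 to 29232522), a leak channel of the TWIK group, had 17.7 and 18.8 CPM in young and 16.5 and 18.1 in aged EpdSC, against 5.26 and 4.84 in young and 7.11 and 7.41 in aged HFSC. Kcnk7 (chromosome 19, 5704471 to 5707984), a relative of Kcnk6 for which a channel current is not well established, had 16 and 13.9 CPM in young and 18.4 and 15.1 in aged EpdSC, against 4.46 and 6.57, and 4.86 and 5.13 in HFSC. Neither gene's populations overlapped. The log2 fold changes of Kcnk6 were 1.85 (SE 0.21) and 1.25 (SE 0.20) in young and aged mice, and those of Kcnk7 1.44 (SE 0.25) and 1.74 (SE 0.25), with adjusted p from 3.78e-05 to 0.00112 in edgeR. Kcnk4, another mechanosensitive leak channel, had 2.82 and 3.55 CPM in young EpdSC and 1.33 and 1.26 in young HFSC (log2 fold change 1.30, SE 0.42, adjusted p = 0.0392 in edgeR), a call that 8 alternative fits did not make, among them those without any 1 of the 4 young libraries or without aged EpdSC replicate 1 (adjusted p from 0.0548 to 0.168 in edgeR).

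Of 33 voltage-gated members tested, 6 were called at each age, all lower in EpdSC. That is 18.2%, beside 13.1% of all genes called lower in young and 11.9% in aged mice. Kcnh1 (chromosome 1, 192189144 to 192510159), the ether-a-go-go channel studied in proliferating cells, had 25.6 and 57.7 CPM in young HFSC and 37.5 and 42.2 in aged HFSC. EpdSC libraries had 2.53 and 2.10 in young and 1.98 and 4.92 in aged mice, below all of HFSC (log2 fold change -4.16, SE 0.45, and -3.53, SE 0.43, adjusted p = 2.96e-05 and 9.06e-05 in edgeR). Kcnh3 (chromosome 15, 99224517 to 99242818), of the same family, had 15.2 and 12.3 CPM in young and 8.75 and 9.64 in aged HFSC, against 0.456 to 1.15 in EpdSC. Its log2 fold changes were -3.87 (SE 0.36) and -3.82 (SE 0.37).

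Kcnd3, Kcnc4, Kcnb2 and Kcnq3 completed the voltage-gated set. Kcnd3 encodes an A-type channel, Kcnc4 a fast channel of high threshold, Kcnb2 a delayed rectifier and Kcnq3 a subunit of the M-current. Their libraries ranged from 6.29 to 7.86 CPM (Kcnd3), 3.52 to 7.32 (Kcnc4), 3.39 to 6.37 (Kcnb2) and 3.74 to 5.70 (Kcnq3) in HFSC. In EpdSC the ranges were 0.495 to 1.18, 0.619 to 1.09, 0.265 to 1.27 and 0.735 to 1.02, so none overlapped. Log2 fold changes in young mice lay between -3.16 for Kcnd3 and -2.32 for Kcnq3. Kcnb2 was not called in aged mice without aged HFSC replicate 1 (adjusted p = 0.0868 in edgeR) or without aged EpdSC replicate 1 (0.104). Kcnd3 has an antisense gene in the count table and no source used here gives the strand setting, so reads of both cannot be told apart.

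Calcium-activated channels held the other large differences. Kcnma1 (chromosome 14, 23292288 to 24005110), the BK channel gated by both calcium and voltage, had 43.8 and 63.9 CPM in young HFSC and 28.6 and 24.2 at 24 months, whereas the 4 EpdSC libraries had 0.559 to 1.25. HFSC libraries were all higher, with log2 fold changes of -5.91 (SE 0.36, adjusted p = 3.32e-07 in edgeR) and -4.71 (SE 0.35, adjusted p = 1.69e-06 in edgeR). Of its beta subunits, Kcnmb1, Kcnmb2 and Kcnmb3 did not pass the filter, and Kcnmb4 had 0.0326 to 0.771 CPM. Kcnmb1 lies within Kcnip1 and Kcnmb4 has antisense genes in the count table, so the limit on shared reads given for Kcnd3 holds for them. The small-conductance channels Kcnn1 (log2 fold change -1.71, SE 0.36, and -2.10, SE 0.36) and Kcnn3 (-4.81, SE 0.72, and -2.66, SE 0.68) were lower in EpdSC at both ages. Kcnn1 lost its young call without young EpdSC replicate 1 (adjusted p = 0.0513 in edgeR), and Kcnn3 its aged call without aged HFSC replicate 2 (0.0577) or aged EpdSC replicate 1 (0.066). Kcnn4, the intermediate-conductance channel, had 2.08 and 5.33 CPM in aged HFSC and 0.556 and 0.326 in aged EpdSC (log2 fold change -3.06, SE 0.86, adjusted p = 0.0227 in edgeR), and was not called without aged HFSC replicate 2 (adjusted p = 0.177 in edgeR) or without aged EpdSC replicate 1 (0.068) or 2 (0.131).

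Of 11 auxiliary genes tested, Kcnip3 was the one higher in EpdSC. It encodes a calcium sensor that binds Kcnd channels and is also known as a transcriptional repressor and as calsenilin. Kcnip3 (chromosome 2, 127456498 to 127522094) had 7.79 to 8.92 CPM in the EpdSC libraries, against 0.566 and 0.0787 in young and 0.973 and 1.09 in aged HFSC (log2 fold change 4.64, SE 0.54, and 3.02, SE 0.48). Its partner Kcnd3 was lower in EpdSC, as given above. Kcnip1, Kcnip2 and Kcnip4 were not called, and Kcnip4 had 1.21 to 1.90 CPM over all 8 libraries. Kcnab3, a beta subunit of Kcna channels, was called lower in young EpdSC (0.412 and 0.954 CPM against 1.93 and 3.70), but not without young HFSC replicate 2 (adjusted p = 0.203 in edgeR) or young EpdSC replicate 1 (0.194). Its antisense gene is also counted, and the limit on strand given for Kcnd3 applies. Kcnab1 and Kcnab2 were not called. Kcne4, an inhibitory beta subunit, had 16 counts in aged HFSC and 0 in aged EpdSC, so at least 5.59-fold higher in HFSC on the same floor, and 7 alternative fits did not call it, among them those without any 1 of the 4 aged libraries, young HFSC replicate 2 or young EpdSC replicate 1 (adjusted p from 0.0586 to 0.157 in edgeR). Kcne1, Kcne2, Kcne3 and Kcne1l were under 1 CPM in every library, as was Kcnq1, the pore they regulate, whose locus also carries the antisense Kcnq1ot1.

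**Figure D2:**
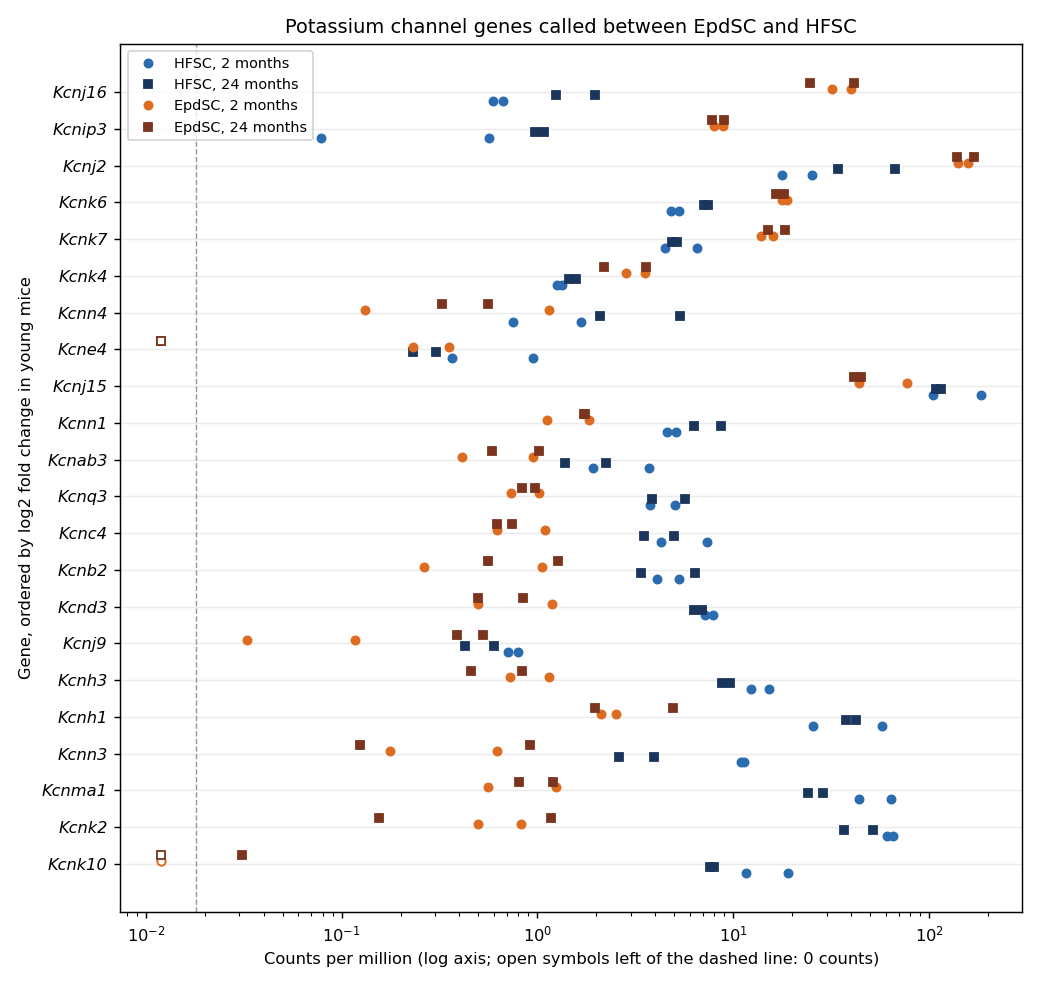
Level in CPM (logarithmic axis) of each of the 22 members called between EpdSC and HFSC, 1 symbol per library, blue for HFSC and orange or brown for EpdSC. The genes are ordered by log2 fold change in young mice, and open symbols left of the dashed line are libraries with 0 counts, as for Kcnk10 and Kcne4 in EpdSC.

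Markers of other cell types differed between the populations as well. The summed level of 7 melanocyte markers was 189 to 260 CPM in HFSC and 12.3 to 19.8 in EpdSC, of which Mitf gave 156 to 239 in HFSC. Dct, a defining melanocyte gene, was at 8.66 to 17.1 CPM in HFSC and 0.230 to 1.04 in EpdSC, and Mlana was under 1 CPM in every library. The 7 suprabasal markers summed to 186 to 500 CPM in HFSC and 3153 to 4373 in EpdSC. Of these, 6 were called higher in EpdSC at both ages and 1, Sbsn, lower, at 91.5 to 110 CPM in HFSC and 37.3 to 50.7 in EpdSC. The 7 pericyte and smooth muscle markers summed to 662 to 784 CPM in HFSC and 169 to 220 in EpdSC, of which Cspg4 gave 640 to 773 and 83.0 to 114. In that list Tagln was at 2.41 to 4.44 CPM over all libraries, Notch3 was at 6.43 to 17.2 CPM in HFSC and 76.6 to 115 in EpdSC, and Rgs5, Myh11 and Pdgfrb were at or under 1.53 in every library. Acta2 was at 3.21 to 4.01 CPM in EpdSC, and HFSC had 0.300 and 0.433 (young) and 1.81 and 11.7 (aged). The 7 cycling markers summed to 255 to 420 CPM in HFSC and 661 to 1056 in EpdSC. Of these, 5 were called higher in young EpdSC (71.4%, beside 13.0% of all genes) and 6 in aged EpdSC (85.7%, beside 12.2%). The 6 fibroblast markers summed to 52.3 to 84.5 CPM in HFSC and 1.24 to 5.93 in EpdSC, of which Col1a2 gave 43.7 to 75.6 in HFSC. The part of these cells in the population differences was not tested in the bulk libraries, and the 10x values below give the place of some members among cells.

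Genes that work beside potassium channels were read from the same fit. Of 14 pump subunits tested, 2 were called higher in EpdSC (14.3%) and 1 lower (7.14%) at both ages, beside 13.0% and 13.1% of all genes in young and 12.2% and 11.9% in aged mice. Atp1b1, a beta subunit of the sodium-potassium pump, had 98.4 and 50.9 CPM in young EpdSC and 1.60 and 1.22 in young HFSC (log2 fold change 5.71, SE 0.42), and Atp1b3 451 and 394 against 136 and 137 (1.63, SE 0.16). Fxyd6, a pump modulator, ran the other way (-2.04, SE 0.24). Among 13 cation-chloride cotransporters and their kinases, 6 were called higher in EpdSC (46.2%) and 2 lower (15.4%) at both ages, beside the same shares of all genes. Wnk2, a kinase that regulates these cotransporters, had 196 and 174 CPM in young EpdSC and 2.06 and 6.25 in young HFSC (5.49, SE 0.42), and Slc12a2, which carries sodium, potassium and chloride inward, 133 and 121 against 32.6 and 24.6 (2.15, SE 0.18). Stk39, a kinase that acts on them, was higher too (1.29, SE 0.21), and Wnk4 was lower (-2.66, SE 0.25).

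Of 20 cation channels that depolarise cells or carry calcium, 2 were called higher (10%) and 5 lower (25%) in EpdSC of young mice, where 13.0% and 13.1% of all genes were, and 3 (15%) and 5 (25%) at 24 months, where 12.2% and 11.9% were. Trpv4, a calcium-permeable channel sensitive to swelling and warmth, had 171 and 154 CPM in young HFSC and 6.00 and 3.26 in young EpdSC (log2 fold change -5.12, SE 0.32, adjusted p = 3.49e-07 in edgeR). Orai2, a subunit of store-operated calcium channels, had 48.8 and 51.3 against 4.62 and 2.99 (-3.71, SE 0.39), while its paralogue Orai1 had 9.39 and 5.78 against 56.2 and 26.8 (2.45, SE 0.38). Trpc4 (3.43, SE 0.58) was also higher in young EpdSC and Trpm4 lower (41.1 and 36.2 CPM in young HFSC, 18.7 and 20 in young EpdSC, SE of the log2 fold change 0.16), and Trpv3 was higher in aged EpdSC (0.98, SE 0.16). Of 7 auxiliary genes outside the family that were tested, Amigo1 alone was called, lower in aged EpdSC (-0.62, SE 0.20, adjusted p = 0.0457 in edgeR). No gene of these lists was called with age by edgeR.

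With age, the edgeR fit with the filter on low counts called no member in either population. In HFSC it called 0 of 74 members, beside 0.368% of all genes. There 8 members had an unadjusted p under 0.05 in edgeR (10.8%, beside 7.68% of all genes), 5 of them higher in aged mice. DESeq2 called 3 members in HFSC, and edgeR without the filter called 4. The 0.368% belongs to the edgeR fit with the filter and is no background for these counts. Shares of all genes called by those fits are not given here, so the counts are not read as a result about the members. In EpdSC edgeR called 0, beside 0.0839% of all genes, and DESeq2 called 0. An unadjusted p under 0.05 in edgeR was reached there by 2 members (2.7%, beside 4.46% of all genes). For the difference between the age effects edgeR again called 0, beside 0.00466% of all genes, and DESeq2 called 0. Of the members, 8 had an unadjusted p under 0.05 for it in edgeR (10.8%, beside 4.57% of all genes). The smallest adjusted p in edgeR was 0.107 in HFSC, 0.781 in EpdSC and 0.743 for the difference. Without young HFSC replicate 1, Kcnip3 was the 1 member called in HFSC, higher in aged mice, on a single young library of 0.0787 CPM whose spread was taken from the other groups.

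Kcnj2 had that smallest p in HFSC, at 17.7 and 25.1 CPM in young and 34.2 and 67.2 in aged libraries. Both aged libraries were above both young ones, and the 2 aged libraries differed by more than the 2 group means did. The log2 fold change of aged over young was 1.25 (SE 0.28, adjusted p = 0.107 in edgeR), and 0.04 (SE 0.27) in EpdSC. DESeq2 gave an adjusted p of 0.00054 and edgeR without aged HFSC replicate 1 one of 0.00434. That fit keeps 1 aged library, the one with 67.2 CPM, and takes its spread from the other groups. Kcnj16 had 0.666 and 0.590 CPM in young and 1.98 and 1.25 in aged HFSC (log2 fold change 1.35, SE 0.38, adjusted p = 0.232 in edgeR, DESeq2 adjusted p = 0.0385). The genes thus had higher values in aged HFSC while both were below every EpdSC library.

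Markers of differentiated and upper follicle cells had higher values in the same aged HFSC libraries. Krt1 was at 2.70 and 18.0 CPM in young and 60.6 and 76.8 in aged HFSC. In EpdSC it was at 710 and 766 in young and 1272 and 1660 in aged libraries. Krt10 was at 13.6 and 61.2 in young and 115 and 143 in aged HFSC. The 7 suprabasal markers summed to 186 and 303 CPM in young and 412 and 500 in aged HFSC, and the 8 sebaceous markers to 238 and 294, and 501 and 625. Of the suprabasal markers 6 had a fold change above 0 in HFSC. Sbsn did not rise, at 107 and 110 CPM in young and 91.5 and 108 in aged HFSC. Ly6a was at 0.399 and 0.629 CPM in young and 1.51 and 1.98 in aged HFSC. Of 7 upper hair follicle markers all 7 had a fold change above 0, and their sum was 864 and 1124 CPM in young and 1121 and 1877 in aged HFSC. Krt79 was at 14.3 and 23.6 in young and 62.2 and 79 in aged HFSC, and Cst6 at 12.3 and 17.6, and 36.3 and 69.3. In EpdSC all 7 suprabasal and all 7 upper hair follicle markers also had a fold change above 0 with age. None of these 7 and 7 was called with age by edgeR in either population. Of the 8 sebaceous markers 1 was called, higher in aged HFSC. The bulge marker Cd34 was at 1807 and 1715 CPM in young and 1088 and 1194 in aged HFSC, while the 8 bulge markers summed to 16480 and 19290, and 16920 and 17570. The part of such cells in the age values of Kcnj2, Kcnj16, Kcnma1 and Kcnn3 was not tested.

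Kcnma1 and Kcnn3 had lower values in aged HFSC. Kcnma1 had 43.8 and 63.9 CPM in young and 28.6 and 24.2 in aged libraries (log2 fold change -1.03, SE 0.28, adjusted p = 0.199 in edgeR, DESeq2 adjusted p = 0.0183). Kcnn3 (chromosome 3, 89520164 to 89672494) had 11.0 and 11.4 in young and 2.62 and 3.92 in aged libraries (-1.78, SE 0.60, adjusted p = 0.369 in edgeR). Neither gene's ages overlapped. Like Kcnj2, both were taken for this comparison by their small p, so with 2 libraries per age the separation is no added evidence. The remaining HFSC gene named for its p was Kcns3, a silent subunit that modifies other voltage-gated pores, with 0.899 and 0.433 CPM in young and 2.15 and 2.67 in aged HFSC (1.84, SE 0.55, adjusted p = 0.267 in edgeR). In EpdSC the 5 members with the smallest p were Kcnj9, Kcnj15, Kcne4, Kcnv1 and Kcng1. Kcnj15 had 43.9 and 76.9 CPM in young and 41.1 and 45.0 in aged EpdSC, which overlap, and the others had at most 1.30 CPM in any EpdSC library.

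**Figure D3:**
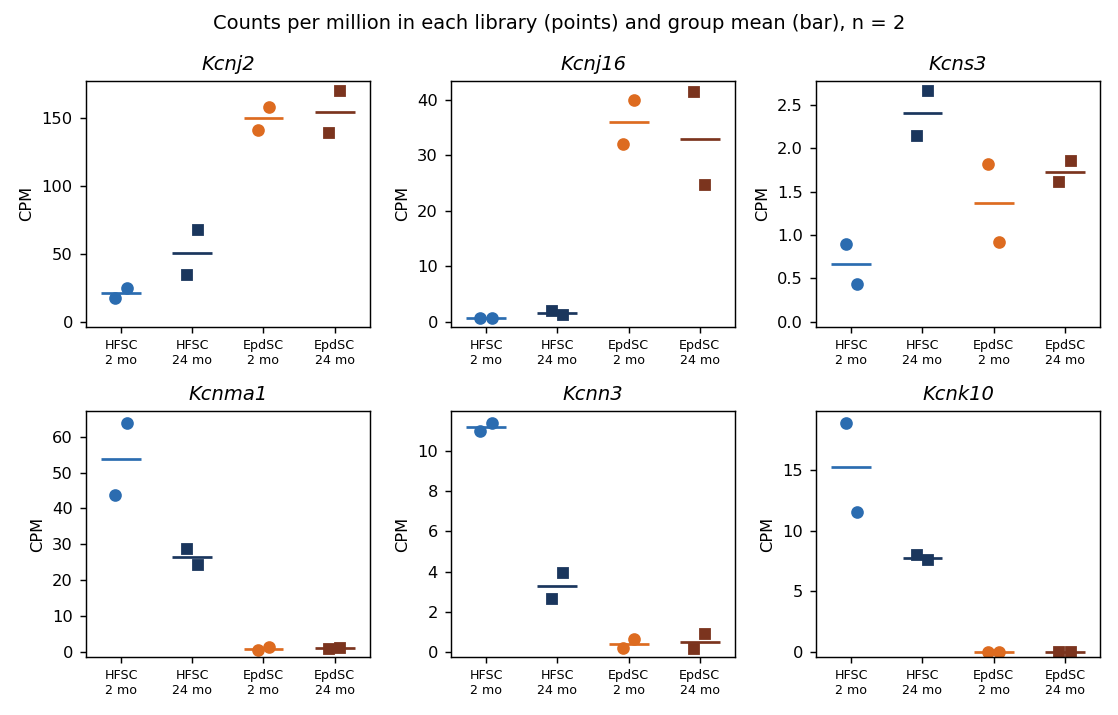
CPM in each library (points) and group mean of 2 libraries (bars) for 6 members, each panel on its own linear axis. Kcnj2, Kcnj16 and Kcns3 have higher values in aged than in young HFSC, and Kcnma1, Kcnn3 and Kcnk10 lower ones, none of them called with age by edgeR with the filter on low counts.

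ATAC-seq counts insertions of a transposase and so measures accessible chromatin. The 4 libraries held 26170665 (young HFSC), 8243922 (aged HFSC), 37325365 (young EpdSC) and 22934060 (aged EpdSC) counts on the nuclear chromosomes. With 1 library per group there is no replicate check and no test. Promoters, here the windows within 500 bases of a RefSeq start, were compared at 2-fold where the pair held at least 20 counts.

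In young mice 59 members could be compared, of which 10 promoters were past 2-fold higher in EpdSC and 4 lower, beside 11.9% and 7.10% of all promoters. In aged mice 18 of 45 were higher and 1 lower, beside 47.3% and 3.21% of all promoters. The aged split depends on scaling: with libraries scaled to their counts in all promoters, 6 were higher and 13 lower. The Kcnk7 promoter had 12.2 CPM in young HFSC and 25.8 in young EpdSC, a log2 ratio of 1.07 with a 95% counting interval of 0.89 to 1.26. That of Kcnj2 had 12.1 and 19.5 (0.69, 0.50 to 0.89), that of Kcnk2 12.1 and 5.68 (-1.09, -1.35 to -0.84) and that of Kcnk10 8.79 and 2.76 (-1.67, -2.02 to -1.33). The Kcnj2, Kcnk2 and Kcnk10 promoters printed above lie among these windows, in which all listed starts of a gene were summed. The Kcnma1 promoter had 1.68 and 1.37 CPM and that of Kcnj15 0.994 and 0.831, and their intervals include 0 although the RNA of both genes differed between the populations. In aged mice the log2 ratio was 1.98 (1.62 to 2.38) for Kcnk7 and 1.46 (1.08 to 1.89) for Kcnj2, but -0.35 (-0.79 to 0.11) for Kcnk2 and -0.28 (-1.01 to 0.53) for Kcnk10, whose intervals include 0. Over all promoters compared, the median log2 ratio was 0.05 in young and 0.97 in aged mice, so 0 was not the typical aged value. The aged Kcnk2 and Kcnk10 intervals lie below that median, and change with age cannot be read from these ratios. The Kcnma1 promoter in aged mice was at 1.74 (0.26 to 4.29) on 3 HFSC counts, an interval that includes the aged median of 0.97. That of Kcnn4 in young mice ran against the RNA, at 2.02 (0.86 to 3.65) on 6 HFSC counts, though its RNA was called in aged mice only. Promoters with more counts did so too in young mice. Kcnc4 was at 0.74 (0.37 to 1.14) on 81 HFSC counts and Kcnd3 at 0.98 (0.40 to 1.62) on 32. In aged mice they were at 1.37 (0.63 to 2.30) on 15 HFSC counts and 1.23 (0.09 to 2.86) on 6. Both aged intervals include the aged median of 0.97, so no direction is read from them. Of 10 promoters compared for members called lower in EpdSC, 3 had a ratio above 0 in young and 7 in aged mice. Their median log2 ratio was -0.28 in young and 0.22 in aged mice, below the 0.05 and 0.97 of all promoters.

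Within and around the called genes, the windows past 4-fold in young mice all ran in the direction of the RNA, but some below that cut did not. Windows of 500 bases from 5000 bases before to 5000 bases after each gene were kept where 1 or both libraries of the pair had at least 4 CPM. In young mice the 16 members called lower in EpdSC at either age held 63 such windows, of which 28 (44.4%) were past 4-fold lower in EpdSC and 0 higher. The 6 members called higher held 19, of which 8 (42.1%) were past 4-fold higher and 0 lower. Over the whole genome 12.4% of such windows were higher and 13.8% lower. In aged mice the 16 genes held 38 windows, 7 higher and 8 lower, and the 6 genes 16 windows, 7 higher and 0 lower, beside 26.0% higher and 4.07% lower genome-wide. Kcnc4, whose RNA was lower in EpdSC, held 4 of those 7 higher windows among the 16 genes. In young mice its windows summed to 60.3 CPM in HFSC and 100 in EpdSC, with log2 ratios of up to 1.68. Windows of Kcnh3 (1.03) and Kcnn4 (1.43) also ran against the RNA in young mice, short of 4-fold. Neighbouring windows of one gene are parts of the same open region and are not independent.

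The windows lay in a few regions of each gene. In Kcnk10 the window at chromosome 12, 98572501 to 98573000, inside the gene and 2.38 kb downstream of a start, had 12.6 CPM in young and 3.03 in aged HFSC, and 0.831 and 0.698 in young and aged EpdSC. A further one, 69.4 kb downstream, had 9.74 and 4.73 in HFSC and 0.697 and 0.523 in EpdSC. Kcnk2 had its strongest difference at chromosome 1, 189384001 to 189384500, within the gene, with 10.0 and 4.37 CPM in HFSC and 0.214 and 0.0872 in EpdSC. In Kcnma1 it was at chromosome 14, 23624501 to 23625000, also within the gene and 379 kb from the start, with 12.0 and 6.55 in HFSC and 0.134 and 0.262 in EpdSC. The HFSC library was higher at both ages in each of these 4 windows.

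In Kcnh1, 8 windows inside the gene from 226 to 267 kb downstream of the start were past 4-fold lower in young EpdSC. Kcnj15 had 3 within the gene, of which the one at chromosome 16, 95285501 to 95286000 had 13.2 CPM in young HFSC and 1.74 in young EpdSC. For Kcnj16 the difference lay in 4 adjoining windows from 111015001 to 111017000 of chromosome 11, inside the gene, 4.33 to 2.83 kb before its nearest listed start. The highest of them had 1.41 and 1.70 CPM in young and aged HFSC and 15.5 and 15 in EpdSC. The promoter windows of Kcnj16 had 1.03 and 0.911 CPM in young HFSC and EpdSC. Kcnip3 had 4 windows higher in EpdSC, of which the highest in EpdSC, 14.6 kb downstream of a start, had 0.726 CPM in young HFSC and 6.43 in young EpdSC.

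**Figure D4:**
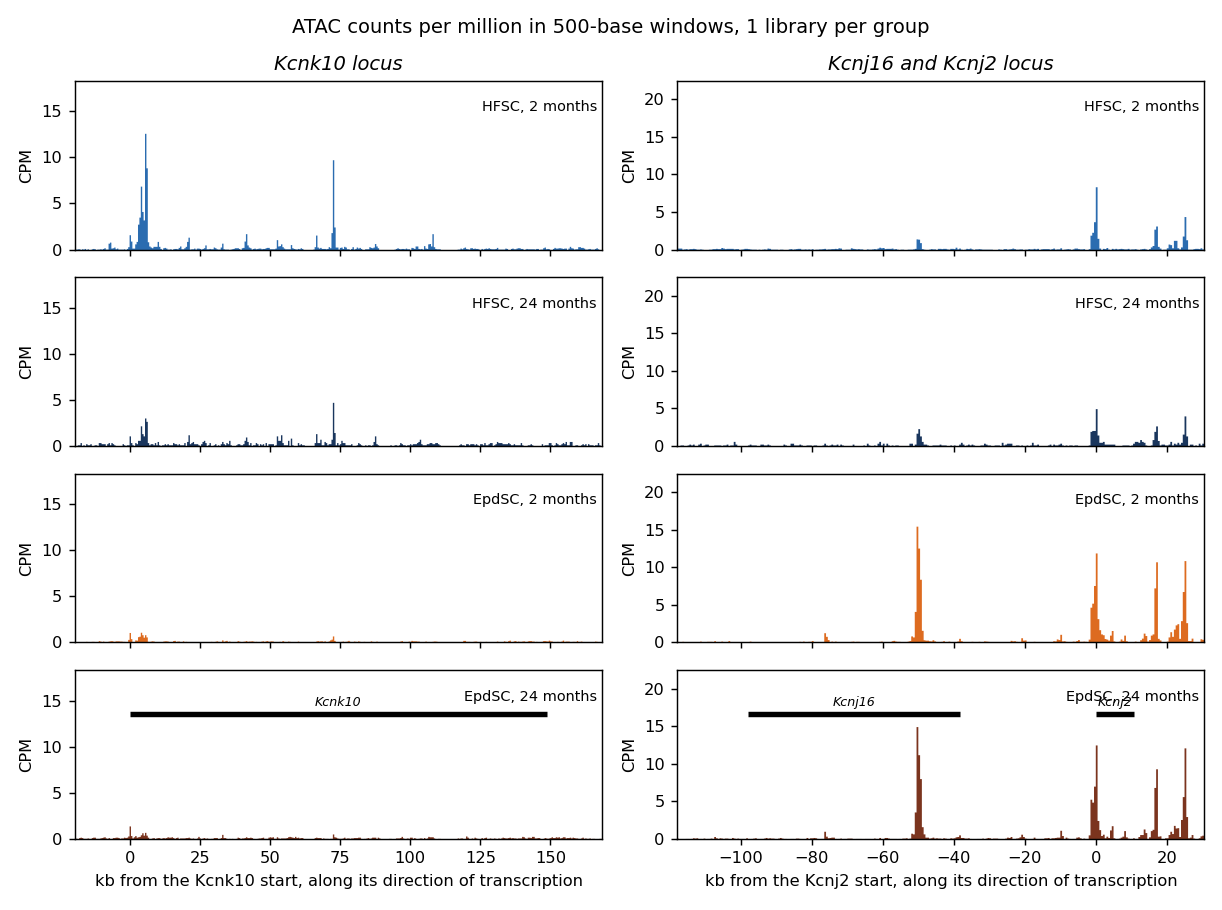
ATAC CPM in 500-base windows along Kcnk10 (left) and along Kcnj16 and Kcnj2 (right), by distance in kb from a start of Kcnk10 or from that of Kcnj2, 1 library per row and black bars for the genes. The Kcnk10 gene has peaks in HFSC that are low in EpdSC, and the peak inside Kcnj16 reaches 15.5 and 15 CPM in EpdSC and at most 2.30 CPM in HFSC.

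The 10x libraries placed members among cells of the sorted epithelium. After filtering they held 4038 young and 4469 aged cells, with 3923 and 2271 unique molecular identifiers (UMIs) per cell at the median, and 33 barcodes occurred in both libraries. All 93 members were in the gene list, 55 had at least 1 UMI and 13 had at least 20. Cells were clustered without the member genes into 14 clusters, and a cluster was named only where at least 5 markers of a type were 2-fold over the other cells, a threshold set after the clusters were seen. By this rule cluster 2 was suprabasal-like (Krt1, Krt10), cluster 7 bulge-like (Cd34, Postn), cluster 8 upper hair follicle-like (Krt79), cluster 11 cycling (Top2a) and cluster 13 sebaceous-like (Mgst1). The others are given by number and leading genes. With 1 library per age there is no test, and intervals are exact 95% Poisson intervals that cover counting error only.

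Kcnk2 was concentrated in the bulge-like cluster, which held 232 of its 312 UMIs, or 74.4%. There it reached 236 UMI CPM (a gene's UMIs scaled to the cluster's total as CPM) in the young library (192 UMIs, interval 203 to 271) and 103 in the aged one (40 UMIs, interval 73.8 to 141). A UMI of Kcnk2 was found in 37.7% of 324 young and 12.1% of 273 aged cells of this cluster, whose median depths were 2388 and 1348 UMIs, and with cells thinned to 1000 UMIs in 20.7% and 8.90%, leaving out 37 aged cells. In the suprabasal-like cluster, with medians of 5572 and 3144 UMIs, 0.410% and 0.444% of cells had one. Cluster 10 (Fam13a, Cldn10, Lgr5) had 19.5 and 15.9 UMI CPM and cluster 6 (Mmp3, Sparc) 12.2 and 6.49. With cells of at most 5% mitochondrial UMIs, a limit applied to the clusters after seeing the data, 121 young and 70 aged bulge-like cells were left. Kcnk2 was then at 219 UMI CPM (interval 172 to 274) in young and 136 (74.3 to 228) in aged cells, and these intervals overlap. The age values compare 2 libraries, and bulk HFSC gave no call for Kcnk2 with age (log2 fold change -0.52, SE 0.36).

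Kcnh1 gave 62 UMIs, of which 18 were in cluster 4 (Sostdc1, Vsnl1), 16 in cluster 3 (Tm4sf1, Fst) and 13 in the bulge-like cluster, where it was at 11.0 and 10.3 UMI CPM in the young and aged libraries. Clusters 1, 2, 5 and 9 held none. With cells thinned to equal depth, the bulge-like cluster had the largest share of cells with a Kcnh1 UMI in both libraries. That share was 1.85% in young (6 UMIs) and 1.27% in aged cells (3 UMIs). Cluster 4 had 0.831% and 0.370%, and cluster 3 had 0.226% and 0.926%, so the order rests on few UMIs. Kcnma1, at 24.2 CPM or more in every bulk HFSC library, gave 16 UMIs in all, which is too few to place. These libraries read 3′ ends, so UMIs and bulk CPM are not on one scale.

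Of the members higher in EpdSC, Kcnk4 gave 10 UMIs in all and was not placed. Kcnj16 gave 0 UMIs in the bulge-like cluster and in cluster 10 in both libraries, and its 227 UMIs lay mainly in the suprabasal-like cluster (104) and in cluster 1 (Il1r2, Igfbp3; 39). It was at 24.1 UMI CPM in young and 16.4 in aged suprabasal-like cells. Counts of UMIs also follow the size and depth of a cluster. With cells thinned to equal depth, Kcnj16 was found in 4.11% of young cells of cluster 9 (Il20ra, Antxr1; 6 UMIs). In young suprabasal-like cells that share was 2.46% (12 UMIs). In aged cells the order was reversed, at 1.10% in cluster 9 (3 UMIs) and 1.48% in suprabasal-like cells (10 UMIs). Kcnip3 had no UMI in the bulge-like cluster among 140, and Kcnk6 none among 61. With 3 counts as the limit that a count of 0 allows, each of these 3 genes could be at up to 3.68 UMI CPM in young and 7.75 in aged bulge-like cells. Kcnj2 was at 2.45 and 7.75 UMI CPM in the bulge-like cluster (2 and 3 UMIs), 12.2 and 13.8 in the suprabasal-like one and 10.7 and 16.1 in cluster 1. Kcnk7, with 1131 UMIs, was at 17.2 and 25.8 UMI CPM in bulge-like and 62.0 and 52.4 in suprabasal-like cells, beside 43.1 and 35.4 in all cells of the young and aged libraries. At equal depth, 10.2% of young cells of cluster 12 (Cdkn3, Cenpa; 16 UMIs) had a Kcnk7 UMI. Upper hair follicle-like cells had 6.89% and suprabasal-like cells 4.51%. In aged cells these shares were 1.05% (1 UMI), 2.5% and 6.53%. Kcnk7 gave 0 UMIs in aged cells of cluster 14 and 1 in aged sebaceous-like cells. No share of free RNA was measured, so low levels are not read as expression.

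Kcnj15, higher in bulk HFSC, was spread more evenly. It was at 20.9 and 28.4 UMI CPM in the bulge-like cluster, 14.8 and 14.4 in cluster 1, and 5.4 and 9.76 in suprabasal-like cells, with its lowest young value, 3.00, in upper hair follicle-like cells. Kcnip2 had 13 of its 23 UMIs and Kcnmb4 12 of its 52 in cluster 10, which held 92 young and 273 aged cells. In whole libraries Kcnj2 was at 10.7 UMI CPM in young (interval 9.19 to 12.4) and 14.1 in aged cells (12.0 to 16.5), and Kcnip3 at 6.28 (5.15 to 7.59) and 2.95 (2.03 to 4.15), which also carry the clusters' unequal shares. Suprabasal-like cells were 12.1% of young and 15.1% of aged cells and bulge-like cells 8.02% and 6.11%.

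**Figure D5:**
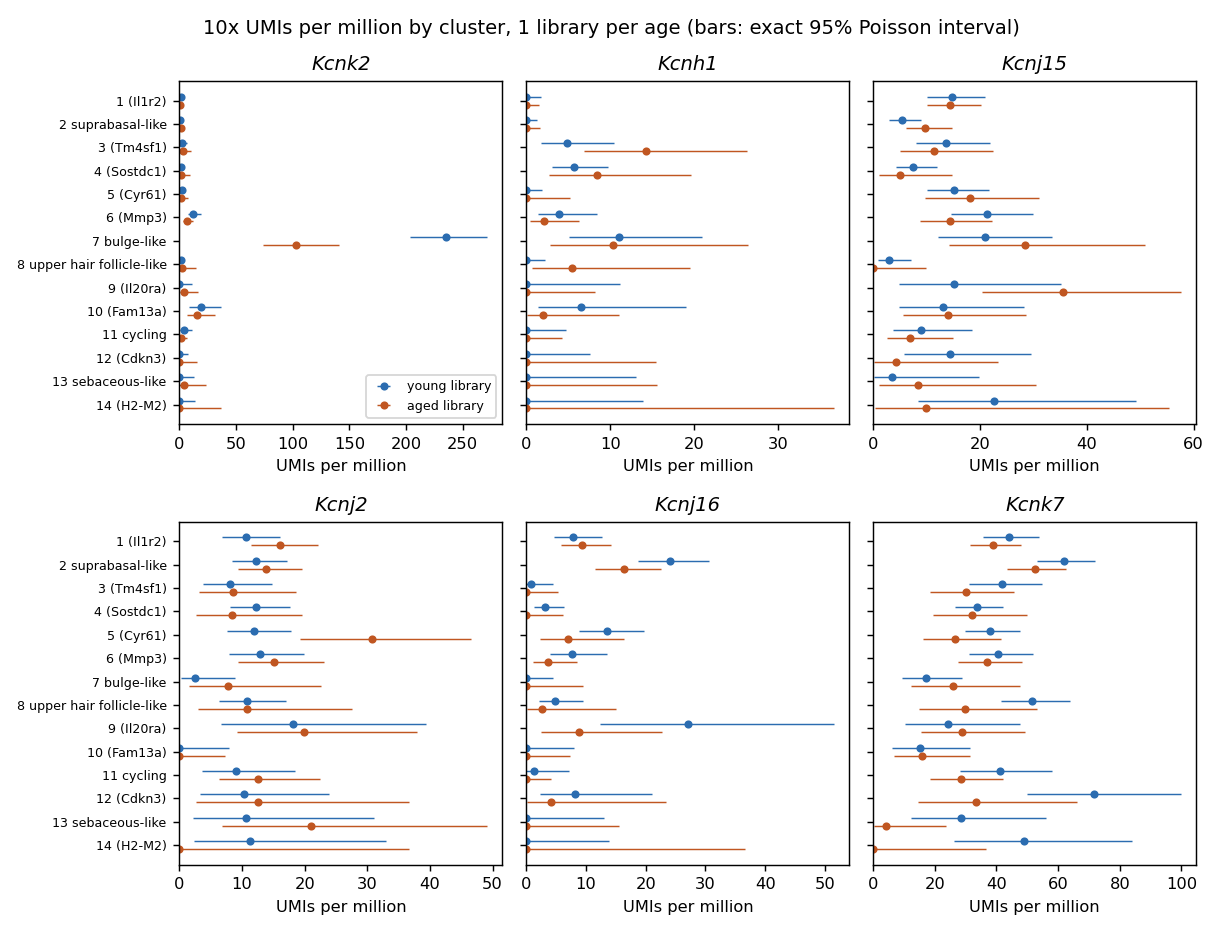
UMI CPM in each of the 14 clusters for 6 members, with the young library in blue and the aged one in orange and exact 95% Poisson intervals as bars. Kcnk2 stands out in the bulge-like cluster, where Kcnj16 is at 0, while Kcnk7 has its lowest values in the aged cells of clusters 13 and 14.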

How the data were processed

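The authors deposited raw counts of reads per gene for 8 RNA-seq libraries, counts per 500-base window for 4 ATAC-seq libraries and UMI counts per barcode for 2 10x libraries. The submitters' processing notes name STAR, Bowtie, Cell Ranger and the build mm10, without versions. For strand setting, duplicate removal and insertion-site shifts: not given in the sources used here.

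RNA counts were tested with edgeR 4.0.16 (TMM scaling, filterByExpr, quasi-likelihood test) in 1 fit of the 8 libraries with a term per group, adjusted by Benjamini-Hochberg over all 21464 genes tested and called under 0.05. SE is the absolute log2 fold change over the square root of F. The common biological coefficient of variation was 0.277. DESeq2 1.42.0, other scalings and filters, a replicate block and leaving out each library were alternatives. The fit was checked on simulated counts. Positions and promoters came from RefSeq GRCm38.p6, which placed all 93 members and gave promoters for 68.

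ATAC counts were taken from non-overlapping windows and divided by the nuclear total, and log2 ratios used a pseudocount of 0.5. A 10x barcode was kept with at least 1049 (young) or 682 (aged) UMIs, a value set as the 99th percentile of the 4000 deepest barcodes divided by 10, with at least 500 genes and at most 10% mitochondrial UMIs. Per the labels, 4000 cells were captured for each library. Clustering used 2000 variable genes centred per library, 30 components, 15 neighbours and leidenalg 0.10.2. No doublet caller was run.

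Text names every called member, members with a group mean of at least 10 CPM, the 5 with the smallest p in each age contrast, partners in the same complexes, and up to 4 called genes per partner list and comparison, by smallest p. Members and lists were chosen with earlier results of these data known.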

Additional observations from a re-analysis of the deposited data

How the results depend on the processing

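Between populations, the number of members called lay within 1.5 times the reported one under every alternative run, at 19 to 21 in young and 18 to 19 in aged mice over the other scalings, filters, DESeq2 and the fit of only the groups compared. Without 1 library it was 16 to 21 in young and 15 to 19 in aged mice. Of the 20 young and 19 aged calls, 15 and 15 held under every alternative. None of the named log2 fold changes changed sign in 776 refits, of which 733 kept their side of the threshold, 34 lost a call and 9 gained one. With age in HFSC, 0 members became 4 without a filter on low counts (Kcnj2 and Kcnj16 higher, Kcnma1 and Kcnn3 lower) and 3 with DESeq2, and 0 to 1 without 1 library. A group left with 1 library is assumed to vary like the others. For the difference between the age effects, 0 became 2 without the filter, and 0 were called without any 1 library. With age in EpdSC it was 0 in all. Shares of all genes called by these alternatives are not given here, so their counts are no result about the members. The cause was not tested.

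Replicate numbers did not pair the libraries: correlations of same-numbered deviations ran from -0.213 to 0.174. With the replicate number as a block, 21 members were called in young and 18 in aged mice between populations, 1 with age in HFSC (Kcnj2, adjusted p = 0.0217 in edgeR) and 0 in EpdSC.

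Promoter counts past 2-fold were 11 to 16 in young and 14 to 19 in aged mice under the other widths, scalings and minimum counts, and the aged split turned from 18 higher and 1 lower to 6 and 13 when scaled to all promoters. Of 48 alternative 10x library levels, 38 lay within the counting interval of the reported one. Kcnk2 in young cells went from 14.1 UMI CPM to 7.81 with at most 5% mitochondrial UMIs and 21.8 with cells thinned to 1000 UMIs. In the bulge-like cluster, an alternative chosen after seeing the data, the 5% limit kept 37.3% of young and 25.6% of aged cells and gave 219 and 136 UMI CPM in place of 236 and 103. Calls at under 1 CPM rest on few counts, as for Kcnj9.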
